A study of Arabidopsis thaliana with 15 samples.

Results

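Arabidopsis plastids carry their own genome, and 7 of its genes that serve gene expression and general upkeep rather than photosynthesis were followed here: rpoA, rpoB, rpoC1 and rpoC2, which encode subunits of the plastid RNA polymerase, rps4, which encodes a protein of the small ribosomal subunit, and accD and clpP, which serve fatty acid synthesis and protein breakdown. They were chosen as the plastid-encoded genes of these names (locus tags ArthCp055, ArthCp014, ArthCp013, ArthCp012, ArthCp024, ArthCp031 and ArthCp048) that have a probe set annotated to a single gene, and each of the 7 had 1 such probe set. They stand among 69 plastid-encoded genes measured this way, so 62 others served for comparison, and among 13356 genes of the whole array with a single-gene probe set. A probe set shared by a nuclear locus and the mitochondrial gene also called rps4 was not used.

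The study measured RNA from the shoot apex of Arabidopsis thaliana on 15 Affymetrix arrays, to map expression in the stem cell niche. The groups were CLV3p (3 arrays), WUSp (2 arrays), FILp (3 arrays), CLV3n (3 arrays), Protoplast_induced (2 arrays) and Uninduced (2 arrays). The first 4 are sorted cell populations from plants 24 days old. CLV3, WUS and FIL are genes of the central stem cells, of the organizing centre beneath them and of the organ primordia, and CLV3n is described as cells without the CLV3p type. Of Protoplast_induced and Uninduced the labels give only these names and the same plant age. Genotype and reporter lines are not given in the sources used here. From general knowledge of the published study, the sorted cells carried fluorescent reporters driven by these genes' promoters in ap1 cal double mutants, whose apices bear many meristems in place of flowers, so a population is whatever cells a promoter marks in that background. Nothing in the labels ties replicates to separate plants or sorts, so the p-values measure only the spread between these arrays.

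The labels of the sorted cells could be checked against a few genes. CLV3 had a signal of 569 to 1220 in CLV3p, 58.0 to 76.1 in WUSp, 1.83 to 6.02 in FILp, 6.73 to 12.2 in CLV3n, 111 to 149 in Protoplast_induced and 94.9 to 101 in Uninduced. YAB3, a close relative of FIL, had 19.0 to 66.7 in CLV3p, 24.4 to 45.9 in WUSp, 361 to 443 in FILp, 130 to 220 in CLV3n, 146 to 175 in Protoplast_induced and 211 to 235 in Uninduced. WUS and FIL themselves were not analysed here. The 5 nuclear green-tissue markers measured (LHCB4.1, LHCB4.2, RCA, PRK and PORB) summed to 1761 to 2247 in CLV3p, 7185 to 8262 in WUSp, 4875 to 7946 in FILp, 4995 to 5932 in CLV3n, 6499 to 7171 in Protoplast_induced and 9096 to 10081 in Uninduced. Each array's 2% trimmed mean signal was 500, and the number of arrays limits the precision of every value.

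Plastids transcribe their genome with RNA polymerases of different origin. One is a bacterial-type enzyme, whose core subunits are the products of the 4 rpo genes and whose chief products in leaves are photosynthesis transcripts. The other kind is nuclear-encoded and phage-type, and it transcribes accD, the rpoB-rpoC1-rpoC2 operon and, in part, clpP. In meristem cells plastids are proplastids, small organelles without developed photosynthetic membranes, in which photosynthesis transcripts are known to be low compared with chloroplasts. The signals below are the authors' MAS5 values, which are linear brightness values. Plastid messages carry no stable poly(A) tail, and how the complementary DNA was primed is not given in the sources used here. In such bulk samples, fewer plastids or cells and less RNA per cell cannot be told apart. Signals of different probe sets are on different scales and are not compared with each other.

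The outstanding pattern concerned rps4 and rpoC2. Both were high in CLV3p and in CLV3n and low in WUSp and FILp. By the limma test across all 15052 probe sets of the 11 sorted arrays, accD also differed among the 4 sorted populations, while rpoA, rpoC1 and clpP did not pass and rpoB was too dim to be tested. The adjusted p of this moderated F test was 9.89e-08 for rps4, 0.000121 for rpoC2 and 0.00139 for accD, against 0.0707 for rpoC1, 0.124 for rpoA and 0.465 for clpP. Thus 3 of the 6 tested genes passed, beside 34.3% of all probe sets tested. Testing required a signal over the array's 40th percentile in 2 or more of the arrays fitted, and a call means a Benjamini-Hochberg adjusted p under 0.05 over all probe sets tested.

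**Figure D1:**
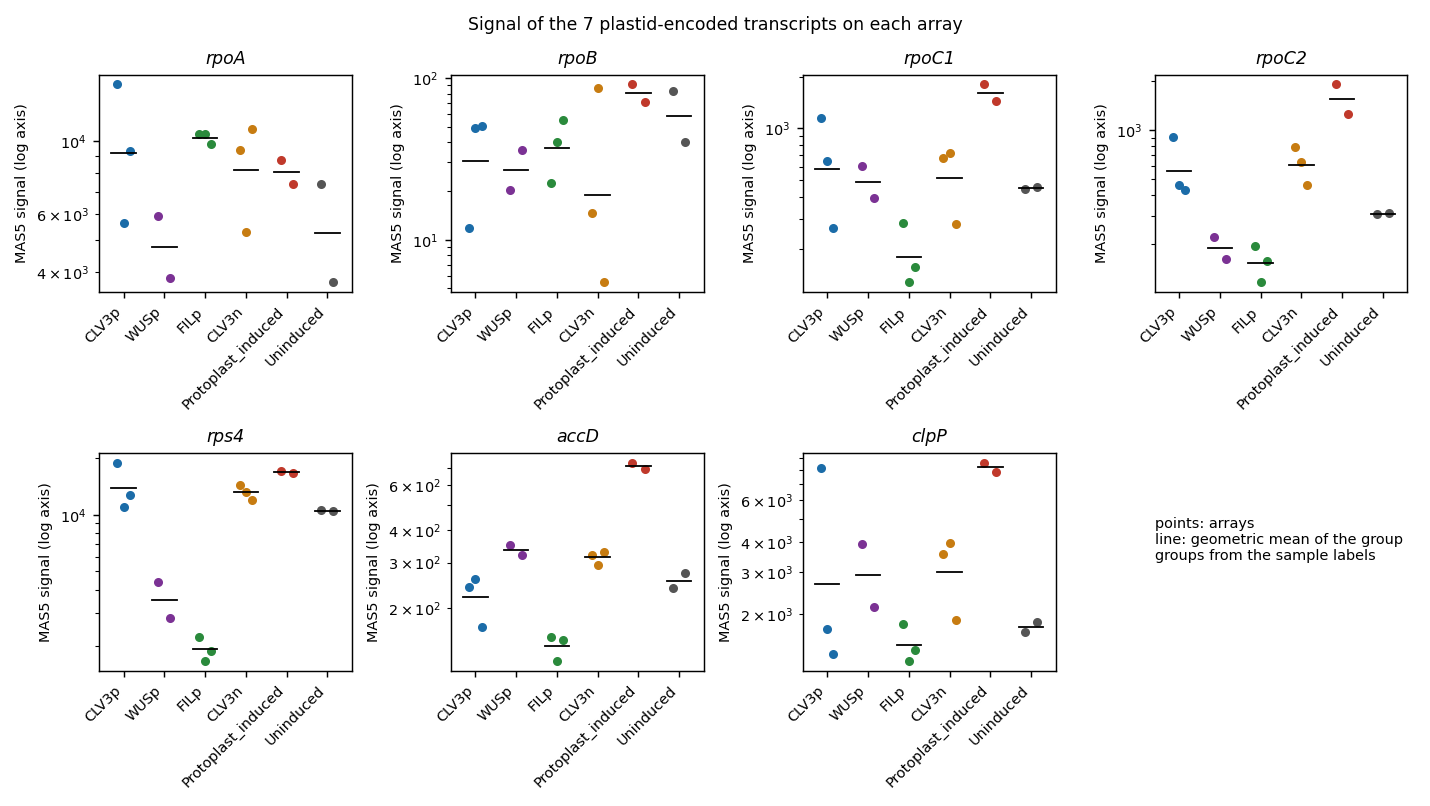
MAS5 signal (log axis) of the 7 plastid-encoded transcripts on each of the 15 arrays, 1 point an array, grouped by sample label, with a line at each group's geometric mean. The rps4 and rpoC2 points of WUSp and FILp lie below all those of CLV3p and CLV3n, and the clpP panel shows CLV3p replicate 1 far above the other CLV3p arrays.

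The product of rps4 is a protein of the 30S ribosomal subunit that binds ribosomal RNA early in assembly. The rps4 signal was 18876, 11016 and 12739 on the CLV3p arrays, 4410 and 2848 on the WUSp arrays, 2238, 1679 and 1903 on the FILp arrays, and 14298, 13211 and 12042 on the CLV3n arrays. It was 17047 and 16665 in Protoplast_induced, against 10577 and 10447 in Uninduced. No WUSp or FILp array reached the lowest array of any other group, and the WUSp arrays lay above all FILp arrays. In order of geometric mean the groups ran Protoplast_induced, CLV3p, CLV3n, Uninduced, WUSp and FILp, and the ranges of Protoplast_induced and CLV3p, and of CLV3p and CLV3n, overlapped.

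In CLV3p, rps4 was 7.18-fold higher than in FILp (log2 difference 2.84 ± 0.21, SE, adjusted p = 8.58e-08) and 3.90-fold higher than in WUSp (1.97 ± 0.23, adjusted p = 2.2e-05). FILp had 6.83-fold less rps4 signal than CLV3n (log2 difference -2.77 ± 0.21, adjusted p = 1.37e-06), a size of difference above that of 99.4% of tested probe sets. WUSp had 3.71-fold less than CLV3n (-1.89 ± 0.23, adjusted p = 6.57e-05). Between WUSp and FILp the difference was smaller, 0.88 ± 0.23 (adjusted p = 0.0168), and it lost its call without WUSp replicate 1 (0.56, adjusted p = 0.275, the 1 WUSp array left being assumed to vary like the other groups), without FILp replicate 2 (0.78, adjusted p = 0.0589) and without FILp replicate 3 (0.87, adjusted p = 0.0526). The comparisons of CLV3p and CLV3n with WUSp and FILp share arrays, so they are not independent of each other.

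Subunit beta'' of the plastid polymerase is encoded by rpoC2. The rpoC2 signal was 906, 459 and 433 in CLV3p, 222 and 163 in WUSp, 194, 117 and 159 in FILp, and 785, 641 and 464 in CLV3n. In Protoplast_induced it was 1903 and 1255, against 305 and 313 in Uninduced. The groups again fell into a high pair, CLV3p and CLV3n, and a low pair, WUSp and FILp, with overlapping ranges within each pair and none between them, and Uninduced lay between the pairs. CLV3p exceeded FILp 3.68-fold (log2 difference 1.88 ± 0.29, adjusted p = 0.00024) and WUSp 2.97-fold (1.57 ± 0.33, adjusted p = 0.00301). Signals were 4.01-fold lower in FILp than in CLV3n (-2.0 ± 0.29, adjusted p = 0.00103) and 3.23-fold lower in WUSp than in CLV3n (-1.69 ± 0.33, adjusted p = 0.00279). WUSp and FILp differed by 0.31 with a 95% interval of -0.39 to 1.01.

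Some array properties ran partly beside these differences. The spiked hybridisation control bioC was low (216 to 313) on all FILp arrays, on CLV3p replicate 3 and on CLV3n replicate 3, and high (643 to 1070) on all others. Only 1 CLV3p array and 1 CLV3n array were low, so values among low-bioC arrays set a single array against the 3 FILp arrays and are given without a test. There the difference between CLV3p and FILp was 2.73 for rps4 and 1.5 for rpoC2, and that between FILp and CLV3n was -2.64 for rps4 and -1.6 for rpoC2. Among high-bioC arrays alone, with 2 arrays in each group, the difference between CLV3p and WUSp was 2.02 ± 0.27 for rps4 and 1.76 ± 0.32 for rpoC2, and that between WUSp and CLV3n was -1.96 ± 0.27 for rps4 and -1.90 ± 0.32 for rpoC2. These 4 high-bioC differences passed the test. For WUSp against FILp no bioC level holds both groups. With bioC as a block the rps4 difference was 0.69 ± 0.31 (adjusted p = 0.153) and the rpoC2 difference was -0.28. The 25S ribosomal RNA control signal was 26839 to 34359 in CLV3p, 18406 to 18503 in WUSp, 23685 to 26778 in FILp and 24420 to 36195 in CLV3n, with 7202 to 7892 in Protoplast_induced and 7181 to 8580 in Uninduced. Its part in the rps4 and rpoC2 differences was not tested. Summed green-tissue markers were lower in CLV3p than in the other sorted groups. The part of green-tissue content in the rps4 and rpoC2 differences was also not tested.

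The plastid-encoded transcripts as a whole also differed between groups. The median signal of the 62 others was 295 to 474 in CLV3p, 378 to 600 in WUSp, 247 to 288 in FILp, 369 to 490 in CLV3n, 1094 to 1705 in Protoplast_induced and 395 to 426 in Uninduced. The 7 genes were therefore also expressed as the log2 signal minus that median on the same array. On this scale rps4 was 5.32, 4.90 and 5.43 in CLV3p, 2.88 and 2.91 in WUSp, 2.96, 2.69 and 2.95 in FILp, and 5.17, 4.75 and 5.03 in CLV3n, so WUSp and FILp took up nearly the same range. It was 3.32 and 3.93 in Protoplast_induced, against 4.74 and 4.62 in Uninduced. Relative rpoC2 was 0.94, 0.31 and 0.56 in CLV3p, -1.43 and -1.21 in WUSp, -0.57, -1.16 and -0.64 in FILp, and 0.98, 0.39 and 0.33 in CLV3n.

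Relative to the other plastid-encoded transcripts, rps4, rpoC2 and rpoC1 were higher in CLV3p than in FILp by 2.35 ± 0.31, 1.39 ± 0.34 and 1.21 ± 0.33 on the log2 scale, and 2.32% of tested probe sets passed in that direction. From WUSp, CLV3p differed by 2.32 ± 0.34 for rps4, 1.92 ± 0.38 for rpoC2 and 1.31 ± 0.34 for rpoA, where 13.3% of probe sets passed as higher. FILp differed from CLV3n by -2.12 ± 0.31 for rps4, -1.35 ± 0.34 for rpoC2 and -0.87 ± 0.33 for rpoC1, where 1.21% passed as lower. WUSp differed from CLV3n by -2.09 ± 0.34 for rps4, -1.89 ± 0.38 for rpoC2 and -0.97 ± 0.34 for rpoA, where 8.17% passed as lower. The rpoA difference did not pass with the mean in place of the median (-1.01 ± 0.35, adjusted p = 0.0517). Between WUSp and FILp, rps4 differed by 0.03 on this scale and did not pass. The subtracted median is common to all probe sets of an array, so its error is shared among them and the adjusted p-values of this scale, which passed for each gene named as different, are likely too small. In either direction, 23.8% of probe sets passed in CLV3p against FILp, 18.4% in CLV3p against WUSp, 50.4% in WUSp against FILp, 29.9% in FILp against CLV3n, 10.3% in WUSp against CLV3n and 8.88% in CLV3p against CLV3n, where none of the 6 genes passed.

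**Figure D2:**
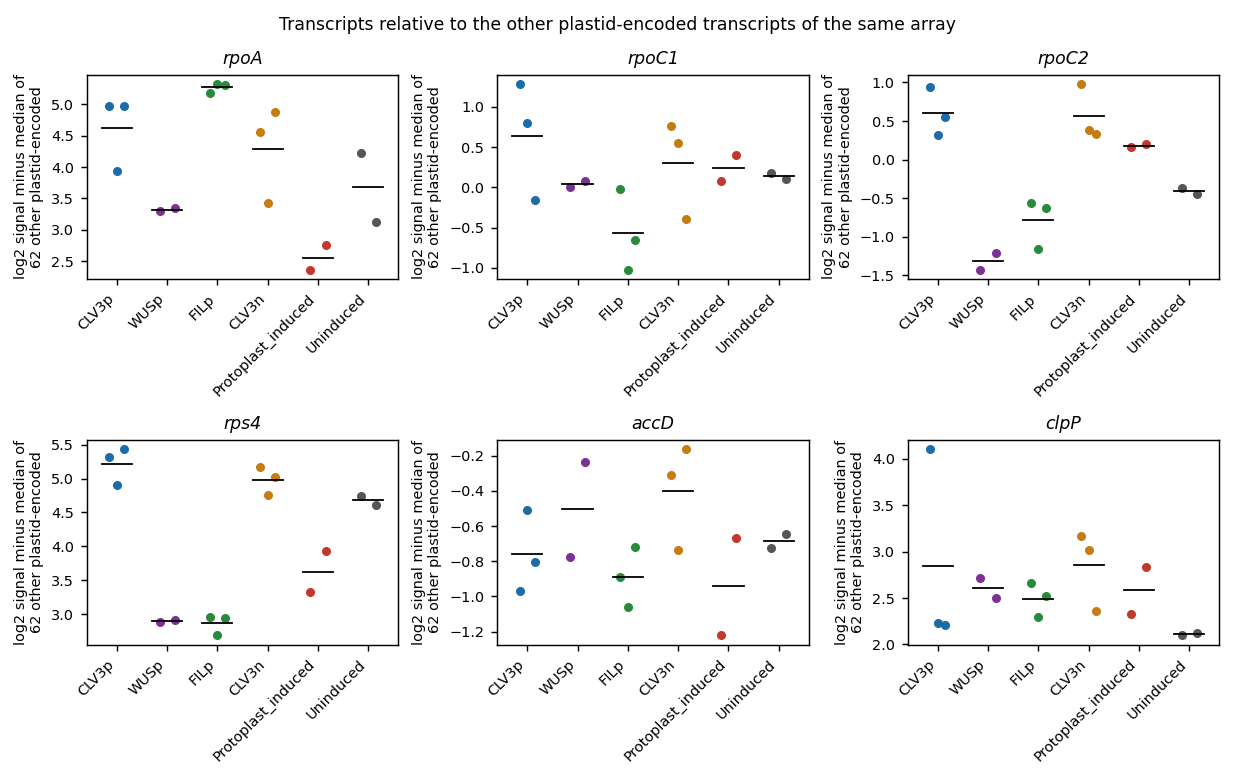
Log2 signal minus the median log2 signal of the 62 other plastid-encoded transcripts on the same array, for the 6 tested transcripts, 1 point an array, with a line at each group's mean. The rps4 points of WUSp and FILp lie between 2.69 and 2.96, below all those of CLV3p and CLV3n (4.75 to 5.43), while the accD points of all 6 groups share one range.

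Of the other polymerase genes, rpoC1, which encodes subunit beta', had signals of 1155, 643 and 264 in CLV3p, 604 and 397 in WUSp, 284, 128 and 157 in FILp, and 676, 720 and 280 in CLV3n. Protoplast_induced had 1801 and 1442, against 447 and 459 in Uninduced. By geometric mean the order was Protoplast_induced, CLV3p, CLV3n, WUSp, Uninduced and FILp, with overlap between neighbours from CLV3p to Uninduced. The low-bioC arrays CLV3p replicate 3 and CLV3n replicate 3 sat among the FILp values. CLV3p was 3.25-fold higher than FILp (log2 difference 1.70 ± 0.52, adjusted p = 0.0376), with overlapping ranges. The call was lost without CLV3p replicate 1 (1.2, adjusted p = 0.132), CLV3p replicate 2 (1.63, adjusted p = 0.0937), FILp replicate 2 (1.46, adjusted p = 0.13), FILp replicate 3 (1.61, adjusted p = 0.114) or CLV3n replicate 1 (1.70, adjusted p = 0.0597), and the 1 low-bioC CLV3p array differed from the FILp arrays by 0.56. Neither FILp against CLV3n (-1.53 ± 0.52, adjusted p = 0.14) nor WUSp against FILp (1.45 ± 0.59, adjusted p = 0.13) passed, though the second did without CLV3p replicate 3 (adjusted p = 0.0466). With the bioC level as a block the WUSp difference from FILp was -0.06.

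The alpha subunit gene rpoA did not follow rpoC1 and rpoC2. Its signal was 14819, 5639 and 9290 in CLV3p, 5909 and 3828 in WUSp, 10482, 10480 and 9748 in FILp, 9385, 5298 and 10860 in CLV3n, 8737 and 7386 in Protoplast_induced, and 7383 and 3724 in Uninduced. FILp had the highest geometric mean and WUSp the lowest, and only between WUSp and FILp among the sorted pairs did the ranges not overlap. That difference was -1.11 ± 0.37 (adjusted p = 0.0684) and did not pass over all 11 arrays. It passed without CLV3p replicate 1 (adjusted p = 0.0232), without CLV3p replicate 2 (adjusted p = 0.0217) and without CLV3n replicate 2 (adjusted p = 0.0321), which changes only the estimate of the spread. Differences of rpoA between CLV3p and WUSp (0.95 ± 0.37, adjusted p = 0.0864) and between WUSp and CLV3n (-0.78 ± 0.37, adjusted p = 0.166) did not pass over all 11 arrays, but passed without CLV3n replicate 2 (0.95, adjusted p = 0.0436, and -1.09, adjusted p = 0.0472). The CLV3p difference from WUSp also passed without CLV3p replicate 2 (1.3, adjusted p = 0.0127). Relative to the other plastid-encoded transcripts, rpoA was lower in WUSp than in FILp (-1.95 ± 0.34) and higher in FILp than in CLV3n (0.98 ± 0.30). On that scale 48.7% of probe sets passed as lower in WUSp than in FILp and 28.7% as higher in FILp than in CLV3n, so these differences went with a large share of the array. With the median of the plastid-encoded ribosomal protein genes in its place, the rpoA difference between FILp and CLV3n was 0.29 and did not pass.

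For rpoB, the beta subunit gene that opens the rpoB-rpoC1-rpoC2 operon, the probe set read 11.8, 48.9 and 50.1 in CLV3p, 20.4 and 36.0 in WUSp, 22.3, 40 and 55.2 in FILp, 14.5, 86.0 and 5.45 in CLV3n, 91.1 and 70.5 in Protoplast_induced, and 83.5 and 40.1 in Uninduced. Its percentile on its own array lay between 6.56 and 39.7, so it never passed the filter. With no filter, none of its 8 comparisons passed, and Protoplast_induced differed from Uninduced by 0.47 ± 0.41 (adjusted p = 0.548). Whether the rpoB message changed with those of its operon partners was not detectable with this probe set.

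Both housekeeping genes gave a different order of the groups. The gene accD encodes the plastid-made subunit of acetyl-CoA carboxylase, the enzyme that commits carbon to fatty acid synthesis. Its signal was 242, 260 and 169 in CLV3p, 351 and 320 in WUSp, 155, 125 and 150 in FILp, and 320, 295 and 330 in CLV3n, with 731 and 689 in Protoplast_induced and 239 and 273 in Uninduced. FILp was lowest throughout, CLV3p came next, and WUSp and CLV3n overlapped above them. WUSp was 2.35-fold higher than FILp (log2 difference 1.23 ± 0.23, adjusted p = 0.00196), and FILp was 2.2-fold lower than CLV3n (-1.14 ± 0.21, adjusted p = 0.00489). The accD difference between FILp and CLV3n kept its call in 22 of the 23 alternatives run. From the 1 low-bioC CLV3n array the FILp arrays differed by -1.21.

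CLV3p exceeded FILp in accD 1.54-fold (0.62 ± 0.21, adjusted p = 0.0433). That call was lost in 7 of the 11 fits that left out an array: without CLV3p replicate 1 (0.55, adjusted p = 0.121), CLV3p replicate 2 (0.50, adjusted p = 0.158), FILp replicate 1 (0.68, adjusted p = 0.0648), FILp replicate 2 (0.53, adjusted p = 0.152), FILp replicate 3 (0.66, adjusted p = 0.0809), WUSp replicate 1 (0.62, adjusted p = 0.0591) and WUSp replicate 2 (0.62, adjusted p = 0.0586). With bioC level as a block it was 0.47 (adjusted p = 0.216), and the 1 low-bioC CLV3p array differed from the FILp arrays by 0.24. Its difference from WUSp (-0.61 ± 0.23, adjusted p = 0.071) and from CLV3n (-0.52 ± 0.21, adjusted p = 0.123) did not pass, although the ranges were apart. Relative to the other plastid-encoded transcripts, accD passed in none of the 8 comparisons. With the median of the plastid-encoded ribosomal protein genes alone subtracted, it passed in FILp against CLV3n (-1.18 ± 0.31, adjusted p = 0.0105).

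The catalytic subunit of the plastid Clp protease that the plastid itself makes is the product of clpP. Its signal was 8153, 1734 and 1362 in CLV3p, 3944 and 2143 in WUSp, 1828, 1280 and 1419 in FILp, and 3578, 3983 and 1897 in CLV3n, with 8565 and 7822 in Protoplast_induced and 1692 and 1851 in Uninduced. CLV3p replicate 1 stood far above the other CLV3p arrays and close to the Protoplast_induced level, while FILp lay below both WUSp and CLV3n without overlap. In order of geometric mean came Protoplast_induced, CLV3n, WUSp, CLV3p, Uninduced and FILp, and all neighbours below Protoplast_induced overlapped. Across the sorted arrays clpP passed in no comparison, and its largest difference, between FILp and CLV3n, was -1.01 ± 0.61 (adjusted p = 0.409). The 95% interval between CLV3p and CLV3n ran from -1.53 to 1.2, so a difference of either sign could have been missed. CLV3p replicate 1 and CLV3n replicate 1 also had the highest actin 3' to 5' log2 ratios of the 15 arrays, 3.78 and 4.2, where the other 13 had 2.14 to 3.43.

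Pair by pair, the sorted populations gave the following counts over the 6 tested genes. CLV3p had 4 higher and 0 lower than FILp (rps4, rpoC2, rpoC1 and accD), where 22.6% of all probe sets passed, 10.5% as higher and 12.2% as lower. Only rps4 and rpoC2 of these 4 kept their calls without CLV3p replicate 1, CLV3p replicate 2, FILp replicate 2 or FILp replicate 3, each left out on its own. CLV3p had 2 higher and 0 lower than WUSp (rps4 and rpoC2), where 24% of probe sets passed, 11.7% as higher and 12.4% as lower. WUSp had 2 higher and 0 lower than FILp (rps4 and accD), where 15% passed, 7.28% as higher and 7.69% as lower, and 1 (accD) without FILp replicate 2, FILp replicate 3 or WUSp replicate 1. FILp had 0 higher and 3 lower than CLV3n (rps4, rpoC2 and accD), where only 4.3% of probe sets passed, 1.73% as higher and 2.56% as lower. WUSp had 0 higher and 2 lower than CLV3n (rps4 and rpoC2), where 19.2% passed, 8.33% as higher and 10.8% as lower. The median log2 difference of the 6 genes was -1.33 between FILp and CLV3n and 1.27 between CLV3p and FILp, where that over all tested probe sets was -0.01 and 0.03.

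Between CLV3p and CLV3n none of the 6 tested genes passed the limma test, where 13.8% of probe sets did, 4.88% as higher and 8.95% as lower. At an unadjusted p under 0.05 the limma count was 1, accD. After adjustment it was 0 under every alternative run. For rps4 the 95% interval of the difference was -0.36 to 0.51 and for rpoC2 it was -0.75 to 0.5. For rpoA it was -0.55 to 0.90 and for rpoC1 -0.98 to 1.33.

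**Figure D3:**
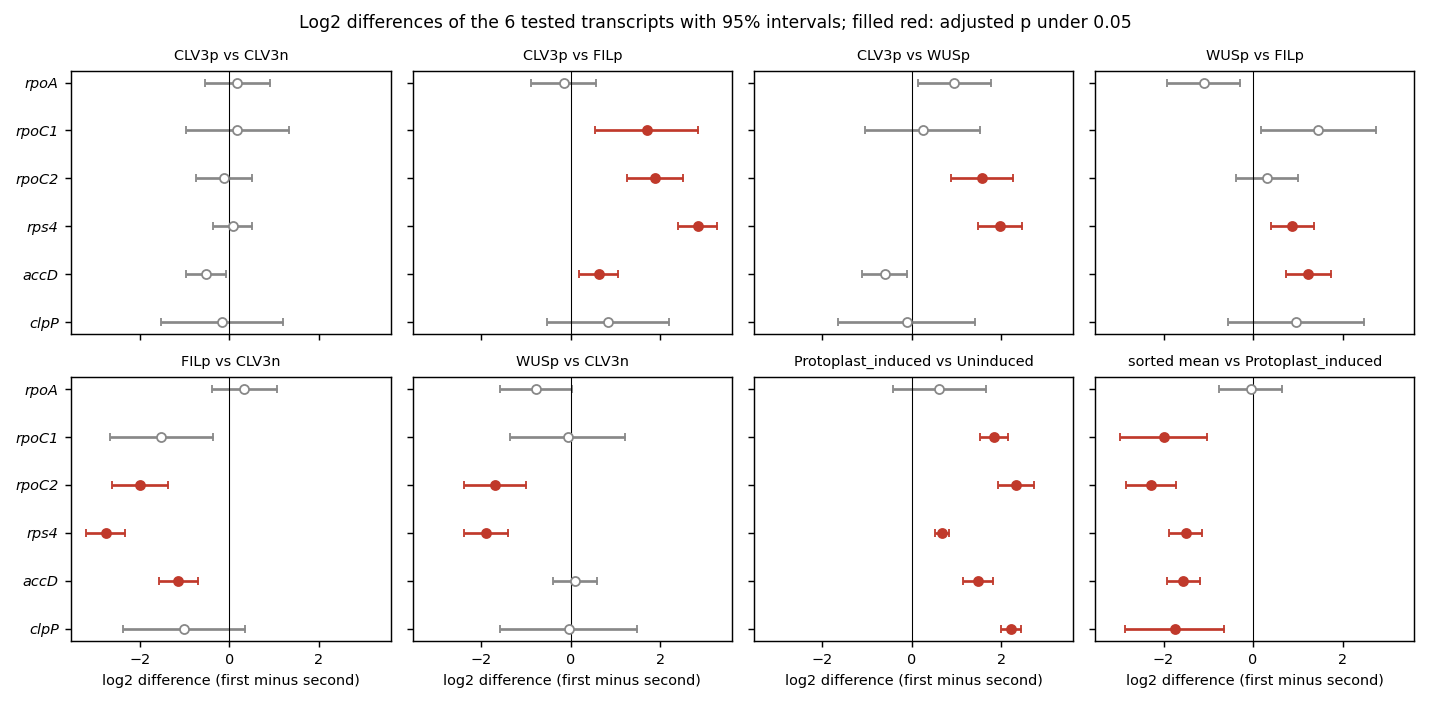
Log2 differences (first group minus second) with 95% intervals for the 6 tested transcripts in the 8 comparisons, filled red where the adjusted p was under 0.05. CLV3p against CLV3n holds no filled point, rps4 and rpoC2 are filled on the same side against WUSp and against FILp, and all but rpoA are filled in both comparisons with Protoplast_induced.

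Protoplast_induced against Uninduced, whose names point to protoplast preparation though no label says more, was fitted on its own 4 arrays and 13911 probe sets. Of the 6 tested genes, 5 were higher in Protoplast_induced and 0 lower, where 21.9% of probe sets passed, 10.5% as higher and 11.4% as lower. The signal of rpoC2 was 5.01-fold higher (log2 difference 2.32 ± 0.18, adjusted p = 9.92e-06), that of clpP 4.63-fold (2.21 ± 0.10, adjusted p = 6.47e-08), that of rpoC1 3.56-fold (1.83 ± 0.14, adjusted p = 3.94e-06) and that of accD 2.78-fold (1.47 ± 0.15, adjusted p = 4.72e-05). For rps4 it was 1.60-fold (0.68 ± 0.07, adjusted p = 4.89e-05). The sixth, rpoA, differed by 0.62 ± 0.37 (adjusted p = 0.324). Its Uninduced arrays lay far apart, and the difference was 1.11 without Uninduced replicate 1 and 0.12 without Uninduced replicate 2, each against the 1 Uninduced array left, so no test is given for these. In the fit of all 15 arrays, whose estimate of the spread includes the sorted groups, only rpoC2 and accD of the 5 passed, and the adjusted p was 0.109 for rpoC1, 0.114 for rps4 and 0.0899 for clpP.

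The rest of the plastid genome moved the same way. Of the 56 other plastid-encoded transcripts tested, 53 were higher in Protoplast_induced and 0 lower, with a median of 1.54, and the 53 differences ran from 0.66 to 2.88. In the fit of all 15 arrays 30 passed. Relative to the median of these others, rps4 (-1.05 ± 0.42) and rpoA (-1.12 ± 0.43) were lower in Protoplast_induced, where the subtracted median itself was higher and 95.9% of all probe sets passed, 95% as lower. On that scale rpoC1, rpoC2, accD and clpP did not pass, but with the mean in place of the median rpoC2 (0.84 ± 0.27) and clpP (0.73 ± 0.26) did. The percentile of rps4 on its own array was 99.96 on both Protoplast_induced arrays and 99.6 on both Uninduced arrays. For rpoA it was 99.5 and 99.2, against 99.2 and 97.2. For clpP it was 99.4 and 99.3, against 90.9 and 91.8. Whether so high a signal limited the measured rise of rps4 and rpoA was not tested. Both Protoplast_induced arrays had actin ratios of 3.36 and 3.43, against 2.75 and 2.44 in Uninduced, and the part of RNA quality in these differences was not tested.

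Sorted populations, taken as the equally weighted mean of the 4 groups, were compared with Protoplast_induced in the fit of all 15 arrays. There 5 of the 6 genes were lower in the sorted cells and 0 higher, where 42.9% of probe sets passed, 19.4% as higher and 23.5% as lower. The log2 differences were -2.28 ± 0.27 for rpoC2, -2.0 ± 0.45 for rpoC1, -1.75 ± 0.51 for clpP (adjusted p = 0.0153), -1.57 ± 0.17 for accD and -1.51 ± 0.18 for rps4, and that of rpoA was -0.05 ± 0.33. For rps4 and clpP the ranges overlapped, since CLV3p replicate 1 reached the Protoplast_induced level in both. The rps4 difference came mainly from WUSp and FILp. Mean log2 rps4 signal was 14.04 in Protoplast_induced, 13.76 in CLV3p and 13.68 in CLV3n, but 11.79 in WUSp and 10.91 in FILp. Each sorted group on its own was not tested against Protoplast_induced. Without Protoplast_induced replicate 1 the calls of rpoC1 (-1.84, adjusted p = 0.0552) and clpP (-1.69, adjusted p = 0.123) were lost, and without Protoplast_induced replicate 2 that of clpP (-1.82, adjusted p = 0.102). Of 58 other plastid-encoded transcripts tested, 54 were lower in the sorted cells, and 33 without Protoplast_induced replicate 1. This comparison and the one before it share the Protoplast_induced arrays, so they are not independent. The 25S ribosomal RNA control signal was 18406 to 36195 on the sorted arrays and 7202 to 7892 in Protoplast_induced. Its part in these differences was not tested. The median of the 62 other plastid-encoded transcripts was 247 to 600 on the sorted arrays and 1094 to 1705 in Protoplast_induced. In Uninduced that median was 395 to 426, inside the range of the sorted arrays. Relative to the other plastid-encoded transcripts only rpoA passed (1.82 ± 0.28), where 90.7% of probe sets did. With the mean in place of the median rpoC2 passed too (-0.60 ± 0.26, adjusted p = 0.0281).

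Seen along the plastid genome, the high rps4 and rpoC2 signals were not shared by all their neighbours. Neighbours were taken from the TAIR10.1 RefSeq annotation, used for gene order only. The gene before rps4, ycf3, which encodes a photosystem assembly factor, did not pass in any comparison of sorted groups and differed between FILp and CLV3n by -0.63 ± 0.25 (adjusted p = 0.186). The gene after it, ndhJ, a subunit gene of the plastid NDH complex, was lower in FILp than in CLV3n (-1.45 ± 0.31, adjusted p = 0.0133; adjusted p = 0.0714 without FILp replicate 3), but also lower in CLV3p than in CLV3n (-0.99 ± 0.31, adjusted p = 0.045), a call that 8 of the 11 fits leaving out an array did not keep. Next to rpoC2, rps2, another small-subunit ribosomal protein gene, was not low in WUSp, with signals of 431 to 745 in CLV3p, 538 to 898 in WUSp, 300 to 416 in FILp and 377 to 474 in CLV3n.

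Beside accD, the photosystem gene psaI was higher in CLV3p than in FILp (1.43 ± 0.31, adjusted p = 0.00395) and lower in FILp than in CLV3n (-1.52 ± 0.31, adjusted p = 0.0116; adjusted p = 0.053 without CLV3n replicate 2), while rbcL, on the other side, passed in no comparison of sorted groups. The neighbours petD of rpoA and psbB of clpP did not pass among sorted groups either.

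**Figure D4:**
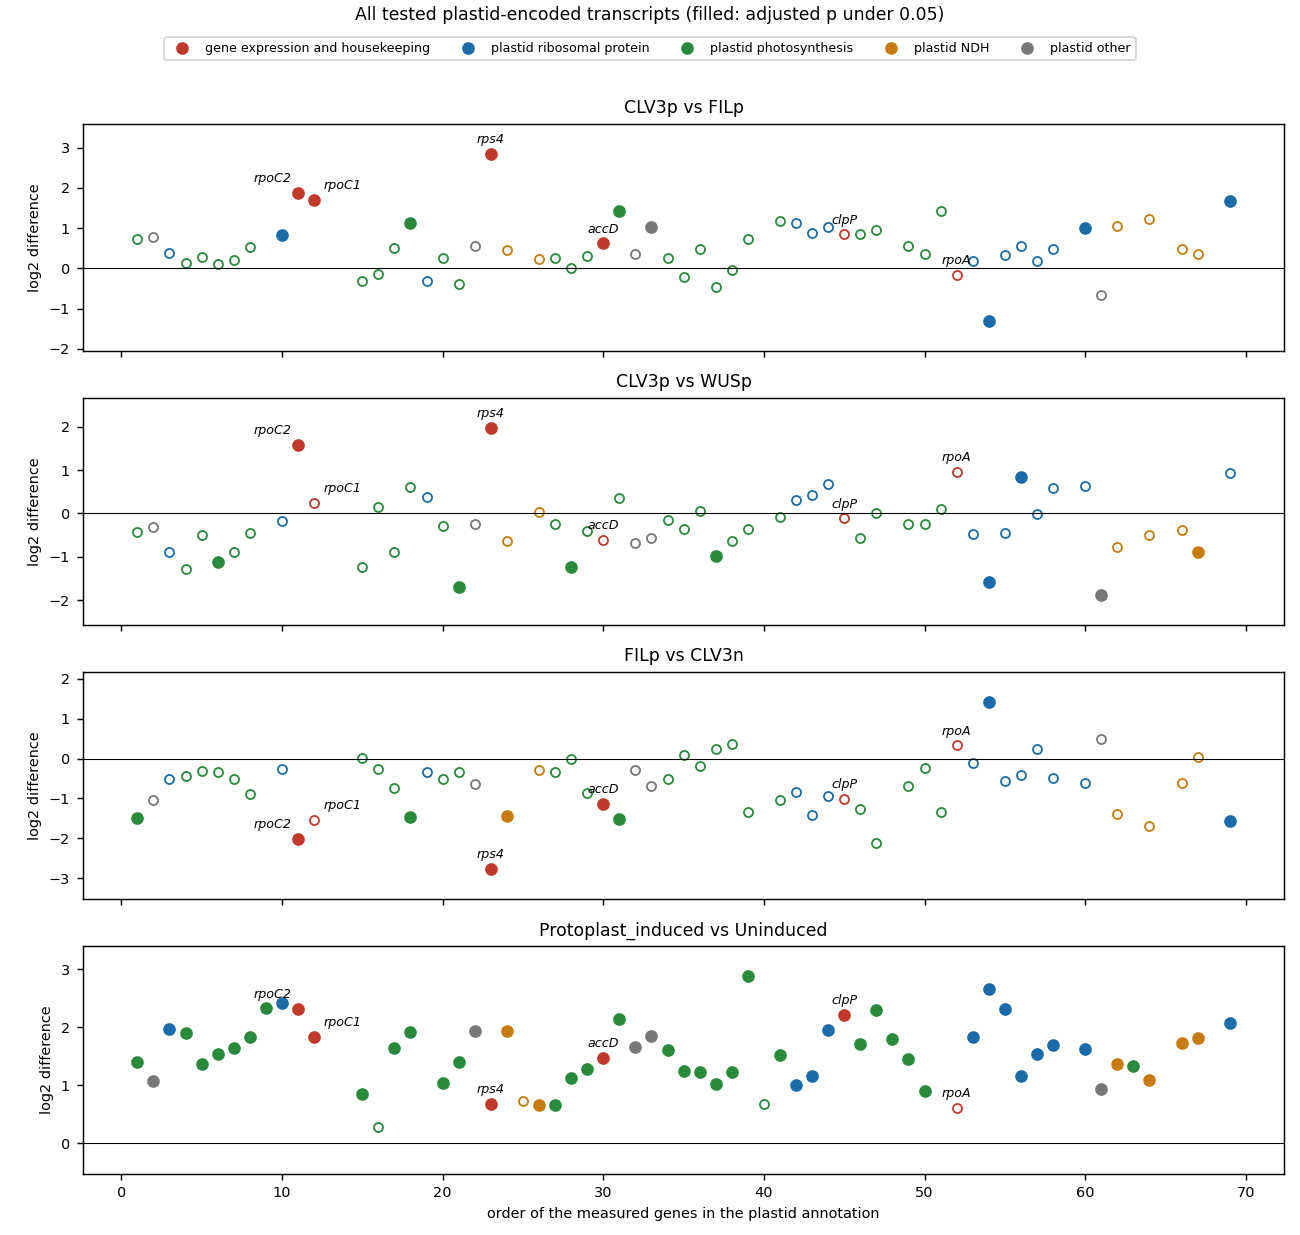
Log2 difference (first group minus second) of every tested plastid-encoded transcript, placed by gene order in the plastid annotation, in 4 comparisons; the named red points are the gene expression and housekeeping genes, other colours mark other classes, and filled points had an adjusted p under 0.05. In CLV3p against FILp and against WUSp the rps4 points (2.84 and 1.97) are the highest of all, and in Protoplast_induced against Uninduced nearly all points lie above 0 with rps4 (0.68) and rpoA (0.62) near the low end.

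Among the 62 other plastid-encoded transcripts, 53 were tested in the sorted arrays. The numbers that were higher and lower were 6 and 1 in CLV3p against FILp, 1 and 7 in CLV3p against WUSp, 9 and 0 in WUSp against FILp, 1 and 5 in FILp against CLV3n, 6 and 1 in WUSp against CLV3n, and 0 and 1 in CLV3p against CLV3n. Of all probe sets tested, 22.6%, 24%, 15%, 4.3%, 19.2% and 13.8% passed in either direction in the same order of comparisons. The median log2 differences of the 53 were 0.46, -0.36, 0.82, -0.51, 0.17 and -0.13 in that order. Single arrays moved the counts of calls among these 53. Leaving out CLV3p replicate 1, FILp replicate 2 or CLV3p replicate 3 gave 4, 3 or 13 calls in CLV3p against FILp. Leaving out WUSp replicate 1 or 2 gave 4 or 5 in CLV3p against WUSp, and leaving out CLV3p replicate 1, FILp replicate 3 or WUSp replicate 1 gave 17, 4 or 1 in WUSp against FILp. In FILp against CLV3n the count was 2 without CLV3n replicate 2 and 3 without CLV3n replicate 1 or any 1 FILp array, and in WUSp against CLV3n it was 4 without CLV3n replicate 1 or WUSp replicate 1. In CLV3p against CLV3n it was 2 without CLV3p replicate 1, and 0 without CLV3n replicate 1, CLV3n replicate 2, FILp replicate 1 or either WUSp array.

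In CLV3p against WUSp, rps4 and rpoC2 were higher while the median plastid-encoded transcript was lower. The large-subunit ribosomal protein gene rpl14 had signals of 305 to 514 in CLV3p, 976 to 1527 in WUSp, 828 to 1195 in FILp and 248 to 524 in CLV3n, opposite to rps4 among the sorted groups, and differed by -1.31 ± 0.28 in CLV3p against FILp (adjusted p = 0.00303). Others ran nearer to rps4. The small-subunit ribosomal protein gene rps3 had 4872 to 7496 in CLV3p, 2926 to 3755 in WUSp, 3727 to 4372 in FILp and 4344 to 6788 in CLV3n, and passed in CLV3p against WUSp (0.85 ± 0.21, adjusted p = 0.00947) and in WUSp against CLV3n (-0.71 ± 0.21, adjusted p = 0.0298). The first of these calls was lost without WUSp replicate 2 (0.67, adjusted p = 0.119), and the second without either WUSp array or without CLV3n replicate 1 or 3 (adjusted p from 0.052 to 0.246). Likewise rps15, also of the small subunit, had 294 to 987 in CLV3p, 290 to 309 in WUSp, 162 to 195 in FILp and 321 to 715 in CLV3n, and passed in CLV3p against FILp (1.67 ± 0.38, adjusted p = 0.00603) and in FILp against CLV3n (-1.57 ± 0.38, adjusted p = 0.034), the second call being lost without any 1 FILp array or without CLV3n replicate 1 or 2 (adjusted p from 0.089 to 0.149). These 3 genes were singled out after their values were seen.

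Nuclear genes that work with these plastid genes were measured only in part. RPOTMP, a phage-type polymerase of plastids and mitochondria, was the only one of 8 listed sigma factor and nuclear polymerase genes with a single-gene probe set here. Its signal was 287 to 356 in CLV3p, 157 to 222 in WUSp, 202 to 231 in FILp, 181 to 221 in CLV3n, 194 to 241 in Protoplast_induced and 217 to 254 in Uninduced, so that all CLV3p arrays were above all others. CLV3p exceeded WUSp by 0.81 ± 0.23 (adjusted p = 0.0181), CLV3n by 0.68 ± 0.20 (adjusted p = 0.038) and FILp by 0.61 ± 0.20 (adjusted p = 0.041). The first call was lost without WUSp replicate 1 (0.56, adjusted p = 0.238), the second in 7 and the third in 5 of the 11 fits that left out an array, with adjusted p up to 0.122 and 0.117. Of the 19 listed proteins that associate with the plastid polymerase, none had a single-gene probe set here.

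Of the 10 nuclear genes for plastid ribosomal proteins tested (34 listed), 0 were higher and 1 was lower in CLV3p than in FILp, PRPL29 (-0.70 ± 0.22, adjusted p = 0.0335), and 0 passed in FILp against CLV3n. At most 1 passed in any comparison other than that of the sorted mean, where 1 was higher and 2 were lower. PRPL5 was lower in CLV3p than in WUSp (-0.88 to -0.63 with 1 array left out) and higher in WUSp than in CLV3n (0.57 to 0.96). PSRP1 was higher in WUSp than in FILp (0.44 to 0.90). The PRPL5 calls were lost without CLV3p replicate 2 and without CLV3n replicate 1 or 3, in that order. The PSRP1 call was lost without FILp replicate 1 or 2. Of 6 nuclear Clp protease genes tested (15 listed), the adaptor gene CLPS1 was lower in WUSp than in CLV3n (-0.80 ± 0.26, adjusted p = 0.0382) and no other passed among the sorted groups. Of 5 fatty acid synthesis genes tested (19 listed), HAD2, for a dehydratase of that pathway, was lower in CLV3p than in FILp (-0.68 ± 0.17, adjusted p = 0.00891) and than in WUSp (-0.66 ± 0.19, adjusted p = 0.0199). Its sign was opposite to that of accD against FILp. Against WUSp accD had the same sign (-0.61 ± 0.23) but did not pass. In Protoplast_induced against Uninduced, where the plastid-encoded transcripts were higher, 0 of these nuclear genes were higher and 4 were lower (PRPS10, CLPR3, HAD2 and FATB, by -0.39, -0.86, -0.84 and -0.83). The PRPL29, CLPS1 and PRPS10 calls named here, and that of HAD2 against WUSp, were lost in 3 or more of the fits leaving out an array.

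Correlation over arrays is given as a description, since the points share groups and array effects. Over the 11 sorted arrays the log2 signals of rpoC2 and rps4 had a Pearson r of 0.97, and of rpoC1 and clpP 0.87. After removal of group means from the 15 arrays, rpoC1, rpoC2 and clpP were still correlated with each other (r from 0.85 to 0.87), as were rps4 and clpP (0.85) and rps4 and rpoC2 (0.85). For each of these genes CLV3p replicate 1 was the highest CLV3p array, most of all for clpP (8153 against 1734 and 1362). The part of that array in these r values was not tested. Over all 15 arrays the r with the median of the other plastid-encoded transcripts was 0.92 for accD, 0.86 for rpoC1, 0.85 for clpP, 0.77 for rpoC2, 0.56 for rps4 and -0.12 for rpoA.

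The genes with the most similar profile were sought by Pearson r over the 15 arrays among 8453 single-gene probe sets. For rpoC2 they were rps15 (0.93) and psaI (0.92), for clpP matK (0.91) and psbB (0.91), and for accD ndhJ (0.92) and the nuclear locus AT2G04795 (0.90). For rpoC1 they were AT2G07708 (0.95) and matK (0.94). Of the 20 most similar genes, 15 were plastid-encoded for rpoC1, 14 for clpP, 12 for accD and 10 for rpoC2. For rps4 only 1 of the 20 was, and its nearest were the loci AT3G15605 (0.95) and AT4G08680 (0.93). For rpoA none was, and its nearest were AT3G51090 (0.87) and AT2G24960 (0.87). The dim rpoB probe set had AT2G17990 (0.82) and AT5G46160 (0.81) and also no plastid-encoded gene among its 20.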

How the data were processed

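The deposited values were read as the authors' MAS5 signal intensity per probe set (MAS5 per the submitters' processing notes, version not given in the sources used here), from total RNA labelled by the standard Affymetrix protocol per the labels' protocols; each array's 2% trimmed mean was 500, as tested on the file. Signals were used as deposited on the log2 scale. Of 22810 probe sets, 13513 had 1 annotated gene, 503 several and 8730 none listed, and 64 were controls. Groups came from the sample labels. Tests used limma 3.58.1 in R 4.3.3 (lmFit, eBayes with trend and robust; two-sided; Benjamini-Hochberg) on 11 sorted arrays, on 4 arrays for Protoplast_induced against Uninduced and on all 15 for the sorted mean. The fit was tested on simulated data. Named genes were the 7 chosen ones, their plastid neighbours, rpl14, rps3 and rps15, some of the listed nuclear partners that passed, and the 2 most similar profiles each. The genes and lists were chosen with earlier results of these data known. Alternatives were quantile and median normalization, other filters, a floor, plain eBayes, other array sets, replicate number and bioC level as blocks, and each array left out; splits by bioC level alone were added after the data were seen. Same-numbered arrays correlated above 0.1 in some but not all pairs, so the numbers were not taken as pairs.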

Additional observations from a re-analysis of the deposited data

How the results depend on the processing

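Of 23 calls among 48 comparisons of single genes, 14 held under every alternative run, all 6 of rpoC2, 5 of rps4 and 3 of accD. Where an alternative leaves a group with 1 array, as among low-bioC arrays and in WUSp, Protoplast_induced or Uninduced with an array left out, the lone array is assumed to vary like the other groups. With each array centred on its median, CLV3p differed from CLV3n by 0.046 for rpoC2 and 0.0071 for clpP, WUSp from CLV3n by 0.072 for rpoC1 and 0.097 for clpP, and the sorted mean from Protoplast_induced by 0.17 for rpoA, all with the sign turned and none called. Without CLV3n replicate 1 and CLV3p replicate 1 together, CLV3p differed from CLV3n by -0.068 for rpoA, -0.12 for rpoC1 and -0.090 for rps4, CLV3p from WUSp by -0.25 for rpoC1, and WUSp from CLV3n by 0.13 for rpoC1 and 0.081 for clpP. That setting called 2 of the genes in CLV3p against FILp (4 with all arrays) and 430 probe sets in FILp against CLV3n (647 with all arrays). With bioC level as a block the counts of genes were 2 in CLV3p against FILp and 1 in WUSp against FILp, probe sets in FILp against CLV3n numbered 404, and the differences with a turned sign were 0.061 for rpoA in CLV3p against FILp, 0.29 for clpP in CLV3p against WUSp, and -0.058, -0.28 and -0.27 for rpoC1, rpoC2 and clpP in WUSp against FILp. This block could not be fitted for Protoplast_induced against Uninduced, whose arrays were all high. Splits by bioC level were chosen after seeing the data. Low-bioC arrays gave -0.23 for rpoA and -0.088 for rpoC1 in CLV3p against CLV3n, -0.13 for clpP in CLV3p against FILp, -0.086 for rpoA in FILp against CLV3n, 2 called genes in CLV3p against FILp, and 1206 and 399 probe sets in CLV3p and in FILp against CLV3n, with 1 CLV3p and 1 CLV3n array and all spread taken from FILp. High-bioC arrays gave 0.37 for clpP in CLV3p against WUSp and 1136 probe sets in CLV3p against CLV3n (2082 with all arrays). Fitting the compared groups alone called 5 genes in WUSp against FILp and 5 in FILp against CLV3n. Plain eBayes called 1 gene in WUSp against FILp and 1972 probe sets in Protoplast_induced against Uninduced. In 1 fit of all 15 arrays, 1032 probe sets were called in FILp against CLV3n, and 727 probe sets and 2 genes in Protoplast_induced against Uninduced (3052 and 5 in its own fit).

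Same-numbered arrays of CLV3p and CLV3n had correlated deviations of 0.346, 0.0445 and 0.347, and those of other groups -0.117 to 0.0961, so the numbers were not taken as pairs. In CLV3p and in CLV3n alike, replicate 3 was the low-bioC array and replicate 1 had the highest actin ratio. With the replicate number as a block, 5 genes differed among the sorted populations (3 without it), the added ones being rpoA (adjusted p = 0.0261) and rpoC1 (adjusted p = 0.00134), 4 were called in WUSp against FILp (2 without it), and clpP differed by 0.17 in CLV3p against WUSp.

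Leaving out 1 array at a time, the CLV3p difference from CLV3n ranged from -0.97 to 0.33 for clpP, -0.17 to 0.53 for rpoA, -0.32 to 0.74 for rpoC1, -0.46 to 0.068 for rpoC2 and -0.15 to 0.24 for rps4. The CLV3p difference from FILp ranged from -0.50 to 0.20 for rpoA, with 2 to 4 genes called. The CLV3p difference from WUSp ranged from -0.92 to 0.37 for clpP and -0.25 to 0.82 for rpoC1, with 1628 to 3760 probe sets. For WUSp against FILp, 1 to 3 genes and 980 to 2473 probe sets were called, and for FILp against CLV3n 355 to 795 probe sets. WUSp against CLV3n gave -0.49 to 0.39 for clpP, -0.51 to 0.23 for rpoC1 and 1035 to 3228 probe sets. Protoplast_induced against Uninduced gave 1576 to 3331 probe sets. The sorted mean against Protoplast_induced gave 3 to 5 genes, 3474 to 6932 probe sets and -0.17 to 0.073 for rpoA. The causes of these changes were not tested. Other probe sets of the same genes could not be tried, since each gene had 1. The rpoB probe set, below the 40th percentile on all arrays, limits what can be said of that gene.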
